A study of Mus musculus with 6 samples.

Results

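The DNA replication machinery was followed as 46 genes in SL4 cells, a luciferase-expressing mouse colorectal cancer (CRC) line, with and without SEMA6A overexpression. The genes were chosen by symbol for their place at the replication origin or fork, with earlier results of these data known. They fall into 9 steps. Each symbol matched 1 identifier among the 53700 genes listed, and all 46 were among the 12510 genes that averaged 1 TPM or more and were tested. The pLV-Control group holds 3 libraries of SL4 cells that the labels describe as not overexpressing SEMA6A, and the pLV-SEMA6A group holds 3 libraries of SL4 cells that stably overexpress it from a lentivirus. No other treatment is described for either group, and no separately made pLV-SEMA6A lines or clones are described, so an effect of SEMA6A and a difference between the cell lines cannot be told apart. Expression was deposited as TPM, a level scaled to transcript length and to a fixed total per library, so levels can be compared between genes, but the number of reads behind them is unknown.

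DNA replication is prepared in G1, when the origin recognition complex, CDC6 and CDT1 load the ring-shaped MCM2-7 helicase onto DNA, a state called licensing. In S phase, kinases and accessory factors turn the loaded rings into active helicases, primase and the polymerases copy the strands, and the sliding clamp PCNA, placed by the RFC loader, holds the polymerases on DNA. Many of these genes are transcribed in waves around the start of S phase under E2F factors, and they are commonly high in dividing tumor cells.

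Sema6a followed the labels, with 98.7, 118 and 112 TPM in pLV-SEMA6A, whereas all 3 pLV-Control libraries list it at 0. Across genes, libraries of one group correlated at a Pearson r of 0.967 to 0.978 on the log2(TPM + 1) scale, and libraries of different groups at 0.941 to 0.957. Fewer genes were above 0 in the pLV-SEMA6A libraries (18798 to 18887) than in the pLV-Control libraries (19340 to 19463). Of 9 colon epithelium markers, none reached a mean of 1 TPM, and Epcam, Cdx1 and Cdx2 were at 0 in all 6 libraries. The 9 summed to 0.13 to 0.49 TPM in pLV-Control and 0.25 to 0.54 TPM in pLV-SEMA6A. The epithelial identity that a colorectal cancer line would imply is thus not seen in these RNAs. None of the leukocyte markers reported (summed 0 to 0.06 TPM, with Cd3e, Cd8a, Adgre1 and Itgam at 0) and none of the 3 endothelial markers (summed 0 to 0.15 TPM) reached 1 TPM. Of the 6 fibroblast markers, 4 did, and their sum moved with the groups, from 115 to 130 TPM in the pLV-Control libraries to 176 to 183 TPM in pLV-SEMA6A. Col3a1, a fibrillar collagen, made up most of it. The 4 genes did not move together: Col3a1 and Col1a1 were called higher (log2 fold changes of 0.53 and 1.02), Pdgfra, a growth factor receptor, was called lower (-0.63, from 1.76 to 0.78 TPM), and Dcn, a matrix proteoglycan, did not pass (-0.08). The part of these markers in the results below was not tested.

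Expression of the replication genes was mostly higher in the pLV-SEMA6A group. Differences were tested on log2(TPM + 1) with limma-trend, with Benjamini-Hochberg adjustment over all 12510 genes, and a gene was called at an adjusted p under 0.05 with an absolute log2 fold change over 0.5. By this rule, 10 of the 46 genes (21.7%) were called higher, beside 5.12% of all genes tested. These were Orc6, Cdc6, Mcm2, Mcm3, Mcm5, Mcm6, Gins1, Gins2, Pclaf and Rpa1. In limma, 0 of the 46 were called lower, beside 10.8% of all genes, and 3 had a lower level at an unadjusted p under 0.05. With no minimum fold change, 30 (65.2%) were higher at an adjusted p under 0.05 and 2 (4.35%) were lower, beside 19.5% and 28.2% of all genes. The other 14 did not pass. These shares of all genes also stand beside the counts given by step below.

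The log2 fold change was above 0 in 39 of the 46 genes and below 0 in 7. Their median was 0.35, and that of all genes tested was -0.06. In 31 of the 46 (67.4%) every pLV-SEMA6A library lay above every pLV-Control library, beside 23.8% of all genes, and in 3 every pLV-SEMA6A library lay below, beside 34.7% of all genes. With libraries centred on their median gene, 35 of the 46 were higher and 0 lower at an adjusted p under 0.05 in limma, while the split of all genes turned from mostly lower to 26.9% higher and 19.8% lower. In bulk RNA, a larger share of cells that express a gene and more RNA per cell cannot be told apart. The labels do not say whether the libraries of a group came from separate cultures, so the p-values measure the spread between these libraries, which may be technical.

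**Figure D1:**
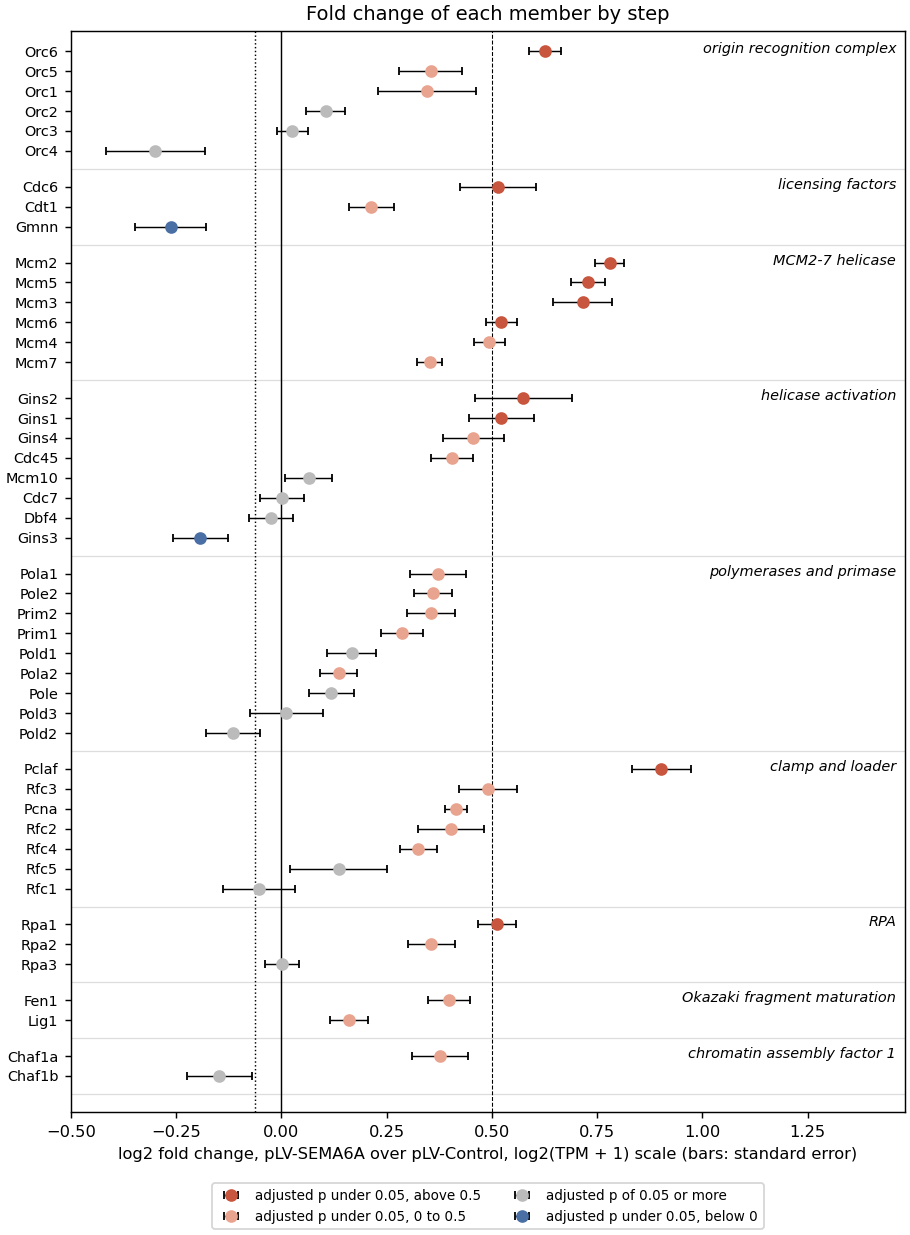
Log2 fold change of each of the 46 replication genes, pLV-SEMA6A over pLV-Control, on the log2(TPM + 1) scale, grouped by step, with bars for the standard error, a dashed line at 0.5 and a dotted line at the median of all genes tested (-0.06). All 6 MCM2-7 genes lie at 0.35 or above, Pclaf lies farthest to the right at 0.90, and Orc4, Gmnn and Gins3 lie farthest to the left.

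The sums of TPM by step show where the difference in message lay. The 46 genes together summed to 2046, 2070.4 and 2105 TPM in pLV-Control and to 2649, 2603 and 2665 TPM in pLV-SEMA6A, a ratio of the means of 1.27. The MCM2-7 genes had the largest ratio, with a sum that went from 456 ± 9.13 to 701 ± 14.7 TPM (SD, n = 3 per group), a ratio of 1.54. The clamp and its loader followed with a ratio of 1.35, from 396 ± 15.9 to 534 ± 0.854 TPM. RPA (ratio 1.22), Okazaki fragment maturation (1.21) and helicase activation (1.19) came next, and chromatin assembly factor 1 (1.13), the origin recognition complex (1.13), the polymerases with primase (1.11) and the licensing factors (1.07) had the smallest ratios. A sum weights genes by level and can mix directions, as in the licensing factors, where Gmnn fell. By median log2 fold change, the licensing factors (0.21) lay above the polymerases with primase (0.17) and chromatin assembly factor 1 (0.11). In all 9 steps the 3 pLV-SEMA6A sums lay above the 3 pLV-Control sums. The order of the ratios is a description, and neighbouring steps were not tested against each other.

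**Figure D2:**
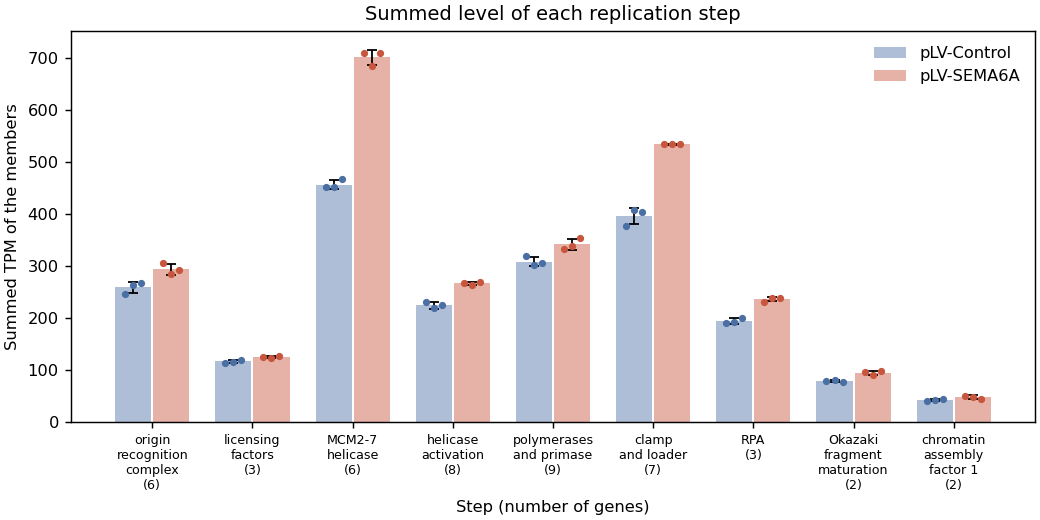
Summed TPM of the genes of each replication step (number of genes in parentheses) in the pLV-Control and pLV-SEMA6A groups, with bars for the mean of 3 libraries, error bars for the SD and points for the libraries. The MCM2-7 bar goes from 456 to 701 TPM and the clamp and loader bar from 396 to 534 TPM, while the licensing factors go from 116 to 124.5 TPM.

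Within the origin recognition complex, the platform that marks origins, Orc6 rose. Orc6, its smallest subunit, stood at 63.5, 63.5 and 68.2 TPM in pLV-Control against 101, 102 and 99.5 TPM in pLV-SEMA6A. The groups were far apart, with a log2 fold change of 0.63 ± 0.04 (SE) and an adjusted p of 4.97e-05 in limma. Orc4, an ATPase subunit, had a lower mean in pLV-SEMA6A, with 65.2, 79.8 and 73.9 TPM against 67.4, 50.6 and 59.9 TPM. Its groups overlapped, and its log2 fold change of -0.30 ± 0.12 did not pass (limma, adjusted p = 0.077). Orc5 (0.35, adjusted p = 0.00856) and Orc1 (0.35, adjusted p = 0.0485) were higher in limma, whereas Orc2 (0.11) and Orc3 (0.03) did not pass. Leaving out any 1 library other than pLV-SEMA6A replicate 2 took the adjusted p of Orc1 above 0.05 (0.0834 to 0.124 in limma). Orc1, the subunit whose level is controlled over the cell cycle, was the scarcest of the complex in every library, at 4.96 to 5.40 TPM in pLV-Control and 5.99 to 8.22 TPM in the pLV-SEMA6A group. The most abundant subunit was Orc4 in each pLV-Control library and Orc6 in each pLV-SEMA6A library, and it exceeded Orc1 by 12.3 to 17 times.

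Of the 3 licensing genes, Cdc6 and Cdt1 rose and Gmnn fell. Cdc6, the ATPase that joins the origin complex to load the helicase, had 10.3, 8.35 and 9.26 TPM in pLV-Control against 14.6, 12.7 and 13.8 TPM in pLV-SEMA6A. It rose with no overlap (log2 fold change 0.51 ± 0.09, adjusted p = 0.00386 in limma), and fell under the minimum of 0.5 without pLV-Control replicate 2 (0.45) or pLV-SEMA6A replicate 1 (0.47). Cdt1, which delivers MCM2-7 to the origin, rose less, by 0.21 ± 0.05 on the log2 scale (limma, adjusted p = 0.0166), with 64.1 to 70.6 TPM against 73.6 to 81.1 TPM. Without pLV-Control replicate 1 or 2, Cdt1 had an adjusted p of 0.0539 or 0.0546 in limma. Gmnn encodes geminin, which binds CDT1 and keeps origins from being licensed again in the same cycle. Its level was 38.5, 43.1 and 39.6 TPM in pLV-Control and 35.9, 29.6 and 35.3 TPM in the pLV-SEMA6A group. Every pLV-SEMA6A value lay below the pLV-Control values, with a log2 fold change of -0.26 ± 0.08 and an adjusted p of 0.0404 in limma. The adjusted p stayed under 0.05 in only 3 of 13 alternatives. Among the fits that left out a library, it did so only without pLV-SEMA6A replicate 1.

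All 6 subunits of the MCM2-7 helicase rose, and 4 of them were called. Of all genes, 19.5% were higher at an adjusted p under 0.05 and 5.12% were called higher. Mcm2 had 79.6, 84.3 and 85.4 TPM in pLV-Control against 143.18, 143.19 and 143.36 TPM in pLV-SEMA6A. Mcm5 had 67.0, 65.4 and 70.6 TPM against 109, 113 and 116 TPM, and Mcm3 had 95.1, 91.2 and 96.4 TPM against 164, 139 and 165 TPM. No library of one group reached the other in these genes. The log2 fold change was 0.78 ± 0.03 for Mcm2 (limma, adjusted p = 1.41e-05), 0.73 ± 0.04 for Mcm5 (limma, adjusted p = 3.96e-05) and 0.72 ± 0.07 for Mcm3 (limma, adjusted p = 0.000361), which ranked 302, 347 and 364 from the top among the 12510 genes.

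The other 3 subunits had smaller fold changes. Mcm6 went from 78.8, 80.5 and 83.7 TPM to 118, 119 and 113 TPM (log2 fold change 0.52 ± 0.04). Mcm4 went from 39.8, 42.3 and 41.3 TPM to 59.5, 58.1 and 57.3 TPM, and its log2 fold change of 0.49 ± 0.04 fell just short of the minimum of 0.5. Mcm7 went from 91.1, 87.3 and 89.7 TPM to 116, 112 and 115 TPM (log2 fold change 0.35 ± 0.03). Each of them was separate between the groups, with adjusted p of 8.57e-05, 0.000118 and 0.000198 in limma. The complex holds 1 copy of each subunit, and the spread among their messages was wider in pLV-SEMA6A. The most abundant subunit exceeded Mcm4, the scarcest in every library, by 2.16 to 2.39 times in pLV-Control and by 2.47 to 2.88 times in pLV-SEMA6A. Mcm7 shares 26.8% of its 31-base transcript stretches with other genes, mainly Gm5487, so its level is less certain.

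**Figure D3:**
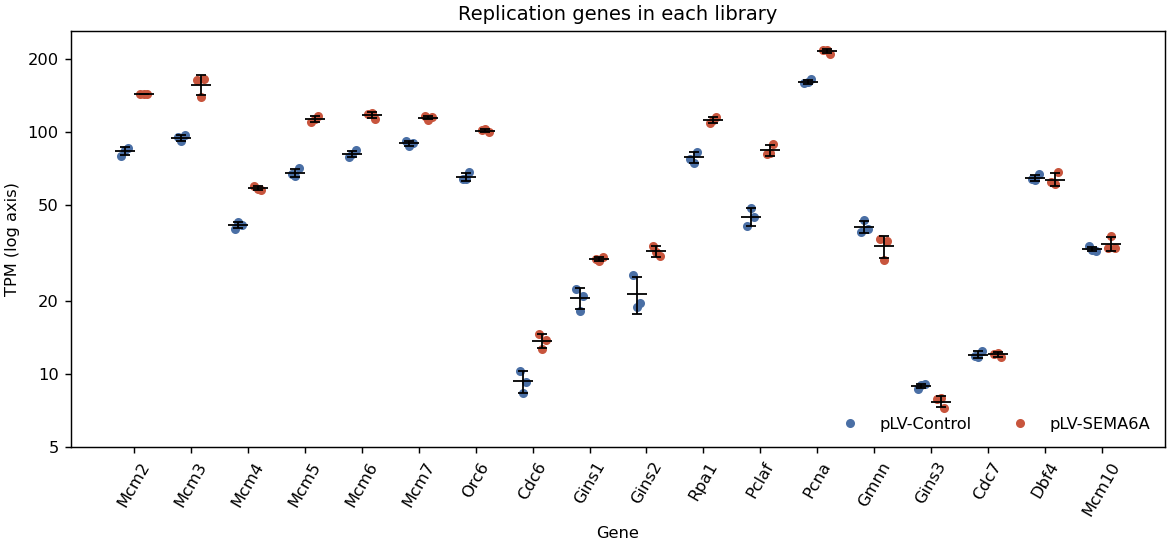
TPM of 18 replication genes in each library (points, log axis) with the mean and SD of the 3 libraries of each group. The 6 MCM genes, Orc6, Cdc6, Gins1, Gins2, Rpa1, Pclaf and Pcna lie higher in every pLV-SEMA6A library, Gmnn and Gins3 lie lower, and Cdc7, Dbf4 and Mcm10 overlap.

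The promoters of the replication genes were read for letters that E2F factors are known to bind. Promoters of 300 bases, from 250 before to 50 after the transcription start, came from RefSeq on GRCm38.p6, which held 38 of the 46 genes. Gmnn, Mcm4, Gins1, Gins2, Gins4, Prim2, Pole and Rfc2 were not matched. Of the 8 genes called higher that have an entry, 5 (62.5%) hold a match to an E2F site. Orc6 and Rpa1 hold none and are not shown, although the log2 fold change of Orc6 (0.63) was above those of Mcm6 (0.52) and Cdc6 (0.51). The 6 shown here are the others of these genes, of which 5 hold a match and Mcm2 does not. They lie at chr6:88898731-88899030 (minus strand) for Mcm2, chr1:20820263-20820562 (minus) for Mcm3, chr8:75109259-75109558 (plus) for Mcm5, chr1:128359656-128359955 (minus) for Mcm6, chr11:98907901-98908200 (plus) for Cdc6 and chr9:65890073-65890372 (plus) for Pclaf. Each is written 5′ to 3′ on the strand of its gene, and capitals mark matches to TTTCCCGC, TTTCGCGC, TTTGCCGC or TTTGGCGC on either strand.
Mcm2: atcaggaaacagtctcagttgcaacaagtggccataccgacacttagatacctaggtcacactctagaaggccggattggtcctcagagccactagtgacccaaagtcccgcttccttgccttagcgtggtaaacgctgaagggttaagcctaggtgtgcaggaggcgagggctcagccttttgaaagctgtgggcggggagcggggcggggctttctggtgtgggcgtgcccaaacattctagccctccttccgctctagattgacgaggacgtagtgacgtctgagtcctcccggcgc
Mcm3: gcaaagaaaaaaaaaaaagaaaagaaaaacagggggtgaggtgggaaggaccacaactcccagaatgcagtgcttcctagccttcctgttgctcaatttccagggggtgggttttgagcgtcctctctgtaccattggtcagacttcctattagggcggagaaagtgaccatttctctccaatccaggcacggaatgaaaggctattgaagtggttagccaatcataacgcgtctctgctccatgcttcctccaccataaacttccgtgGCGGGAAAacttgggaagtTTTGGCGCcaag
Mcm5: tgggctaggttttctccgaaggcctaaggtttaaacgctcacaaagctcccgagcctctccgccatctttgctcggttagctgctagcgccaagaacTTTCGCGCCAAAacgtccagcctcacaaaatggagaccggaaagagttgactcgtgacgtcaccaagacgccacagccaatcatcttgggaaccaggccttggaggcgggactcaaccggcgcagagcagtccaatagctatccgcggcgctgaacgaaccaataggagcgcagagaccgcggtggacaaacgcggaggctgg
Mcm6: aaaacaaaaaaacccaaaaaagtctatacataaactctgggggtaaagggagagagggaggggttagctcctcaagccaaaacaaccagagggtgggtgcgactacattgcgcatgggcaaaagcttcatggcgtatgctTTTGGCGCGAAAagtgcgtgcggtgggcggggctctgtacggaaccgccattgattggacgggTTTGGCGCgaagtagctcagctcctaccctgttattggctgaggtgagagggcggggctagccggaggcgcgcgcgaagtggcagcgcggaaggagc
Cdc6: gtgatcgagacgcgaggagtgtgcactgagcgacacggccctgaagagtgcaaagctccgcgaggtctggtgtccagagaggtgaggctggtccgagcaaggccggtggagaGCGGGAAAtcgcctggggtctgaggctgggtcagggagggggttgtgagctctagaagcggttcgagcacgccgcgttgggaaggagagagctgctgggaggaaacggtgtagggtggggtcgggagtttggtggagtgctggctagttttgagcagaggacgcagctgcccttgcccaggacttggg
Pclaf: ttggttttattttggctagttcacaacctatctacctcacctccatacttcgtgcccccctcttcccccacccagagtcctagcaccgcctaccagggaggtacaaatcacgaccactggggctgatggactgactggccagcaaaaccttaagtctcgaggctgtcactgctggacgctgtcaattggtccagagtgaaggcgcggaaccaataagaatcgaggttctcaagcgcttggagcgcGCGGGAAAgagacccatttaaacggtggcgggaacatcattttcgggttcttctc

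Of the 38 genes with a promoter, 16 (42.1%) held such a match, beside 2.26% of all 32851 promoters, 2.6% of all genes with a promoter and 5.06% of the 9205 genes tested that have a promoter entry. The share was 12 of 24 (50%) among the genes that rose at an adjusted p under 0.05 and 4 of 14 (28.6%) among the others, and that difference was not tested. Gins3, one of the 2 genes that fell, also held a match. Of the 22 matches, 15 lay after the start or within 100 bases before it, as in Mcm3 and Pclaf. Those of Mcm5 and Cdc6 lay farther upstream. Positions count from the annotated start, and in 40 of 47 promoters the bases after it lay in the GENCODE M21 transcripts of the gene. In Mcm5 and Mcm6, a pair of matches overlapped on opposite strands and shows as 1 longer stretch of capitals. Only 1 match, in Mcm7, overlapped another of the motifs searched. The CCAAT box, searched as CCAAT on both strands, was in 23 of 38 genes (60.5%) beside 41.1% of all genes with a promoter, 44% of those tested and 37.4% of all promoters. The cell cycle homology region, searched as TTTGAA and TTCGAA, was in 9 of 38 genes (23.7%) beside 21.7% of all genes with a promoter, 16.4% of those tested and 19.2% of all promoters. Mcm2 held 1 of each of these. A match is a run of letters, and binding was not measured.

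**Figure D4:**
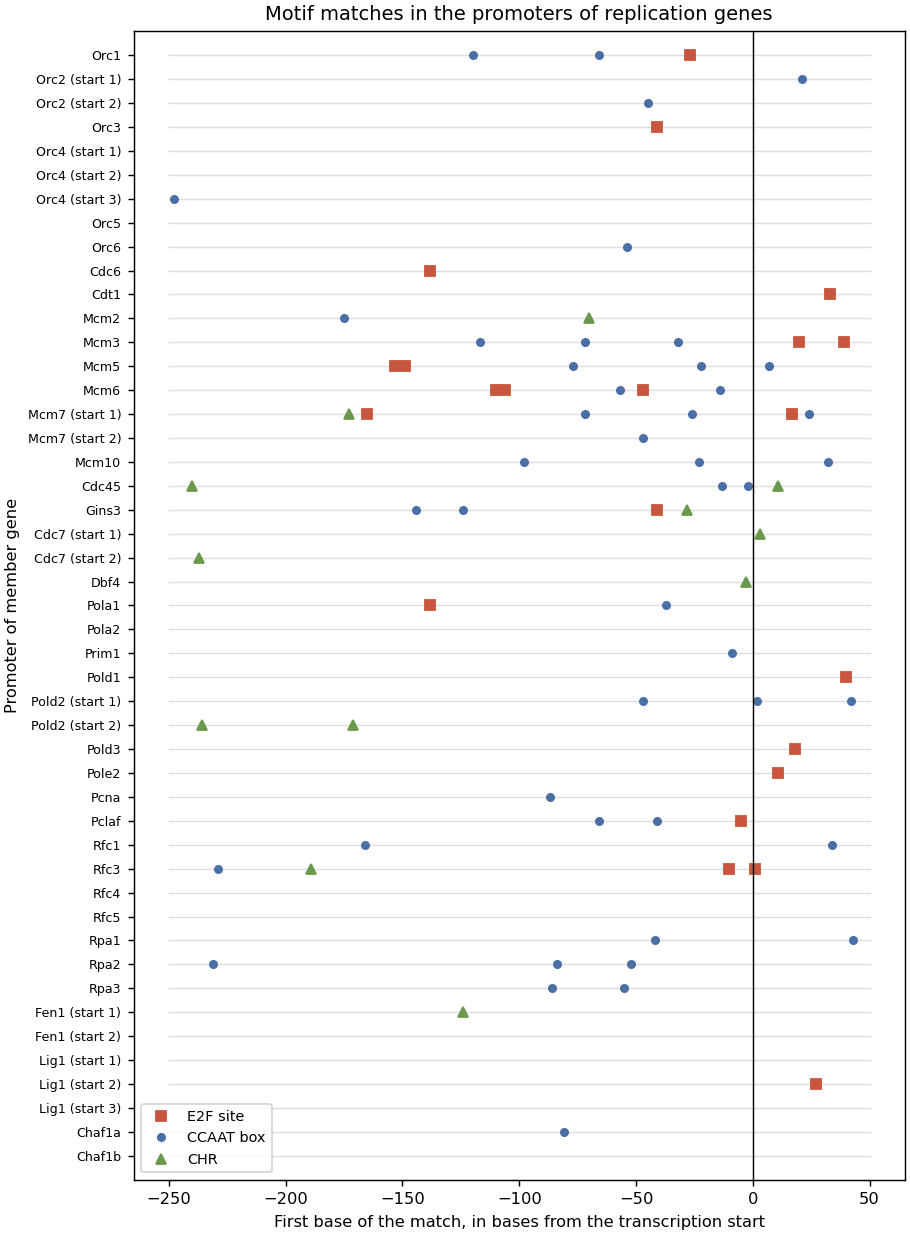
Position of each match to the E2F site, the CCAAT box and the cell cycle homology region (CHR) in the promoters of the 38 replication genes with an entry, in bases from the transcription start. E2F matches are in 16 genes, and 15 of the 22 matches lie after the start or within 100 bases before it.

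Among the factors that activate the helicase, 3 of the 4 GINS genes and Cdc45 rose at an adjusted p under 0.05, beside 19.5% of all genes. GINS and CDC45 form the running helicase with MCM2-7. Gins2 had 25.6, 18.9 and 19.6 TPM in pLV-Control against 33.8, 31.7 and 30.7 TPM in pLV-SEMA6A (log2 fold change 0.57 ± 0.11, adjusted p = 0.00685 in limma). Gins1 had 22.4, 18.3 and 21.02 TPM against 29.8, 29.4 and 30.5 TPM (log2 fold change 0.52 ± 0.08, adjusted p = 0.00187 in limma). Both were separate between the groups, and pLV-Control replicate 1 was the highest of its group in each. Without pLV-Control replicate 2, Gins1 (0.44) and Gins2 (0.496) were no longer over 0.5. Gins4 rose by 0.46 and Cdc45 by 0.40 on the log2 scale (limma, adjusted p = 0.00259 and 0.000936). Gins3, the remaining subunit of the same 4-part complex, was lower, with 8.67, 8.98 and 9.04 TPM against 7.86, 7.92 and 7.20 TPM. Its groups did not overlap either, and its log2 fold change was -0.19 ± 0.07 (limma, adjusted p = 0.0488). The adjusted p stayed under 0.05 in 2 of 13 alternatives and in none that left out a library. Gins3 was also the scarcest of the 4 in every library.

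The genes of the kinase that fires origins did not pass. Cdc7, which phosphorylates the MCM ring, had 11.9, 11.7 and 12.5 TPM against 12.04, 12.2 and 11.8 TPM. Dbf4, its activating subunit, had 63.6, 63.1 and 66.5 TPM against 61.7, 60.5 and 67.9 TPM. The groups overlapped in both, with log2 fold changes of 0.00 ± 0.05 and -0.02 ± 0.05 (limma, adjusted p = 0.985 and 0.719). Mcm10, which helps to start unwinding, had a log2 fold change of 0.06 and did not pass. Of the exonic bases of Gins2, 67.3% are overlapped on the other strand by Gse1, which had 4.44 ± 0.751 and 4.21 ± 0.516 TPM. Whether strand was used in counting is not given in the sources used here, so reads of such pairs cannot be told apart.

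The 9 polymerase and primase genes had a median log2 fold change of 0.17, beside 0.62 for the 6 MCM2-7 genes. Of the 9, 5 rose at an adjusted p under 0.05, beside 19.5% of all genes. Pola1, the catalytic subunit of polymerase alpha that starts each strand, had 17.7, 17.5 and 16.9 TPM against 24.6, 20.9 and 23.0 TPM. It was the highest of the step by log2 fold change, at 0.37 ± 0.07 (limma, adjusted p = 0.00427), with no overlap. Its partners in the primase complex also rose, Prim2 by 0.36, Prim1 by 0.29 and Pola2 by 0.14 on the log2 scale (limma, adjusted p = 0.00288, 0.00409 and 0.0411). Leaving out any 1 library other than pLV-Control replicate 2 took the adjusted p of Pola2 above 0.05 (0.0577 to 0.118 in limma). Pole2, an accessory subunit of the leading-strand polymerase epsilon, rose by 0.36 (limma, adjusted p = 0.00108), but 10.7% of its 31-base stretches occur elsewhere, mainly in Gm49384.

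The catalytic subunits of the bulk polymerases did not pass. Pole had a log2 fold change of 0.12 and Pold1, the catalytic subunit of polymerase delta, 0.17 (limma, adjusted p = 0.109 and 0.058). Pold3 had 0.01. Pold2, an accessory subunit of polymerase delta, was the lowest of the step, with 80.4, 78.6 and 77.5 TPM against 66.1, 73.6 and 79.0 TPM. Its groups overlapped through pLV-SEMA6A replicate 3, and its log2 fold change was -0.11 ± 0.06 (limma, adjusted p = 0.189).

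In the clamp and loader step, Pclaf had the largest log2 fold change of all 46 genes. Pclaf, a small protein that binds PCNA, had 40.7, 48.3 and 44.2 TPM in pLV-Control against 80.5, 81.9 and 88.9 TPM in pLV-SEMA6A. Its log2 fold change of 0.90 ± 0.07 (limma, adjusted p = 0.000135) ranked 206 of 12510, and the groups were widely separate. Pcna, the sliding clamp, was the most abundant gene of the 46, with 158, 160.2 and 164 TPM against 217, 217 and 210.1 TPM. It rose by 0.41 ± 0.03 on the log2 scale with no overlap (limma, adjusted p = 6.39e-05), below the minimum fold change. Of its 31-base stretches, 23.3% occur in other genes, mainly the pseudogene Pcna-ps2. The paper reports slower proliferation of SEMA6A-overexpressing cells in culture and less PCNA protein staining in tumors grown from them. Those are measures of growth and of protein in tumors, unlike RNA of cultured cells. How they relate to the RNA levels here was not tested.

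Of the 5 loader genes, 3 rose at an adjusted p under 0.05, beside 19.5% of all genes. Rfc3 (0.49), Rfc2 (0.40) and Rfc4 (0.33), subunits shared by the clamp loaders, rose, with adjusted p of 0.00164, 0.00634 and 0.00142 in limma. Rfc5, another shared subunit, had a log2 fold change of 0.14 with overlapping groups. Rfc1, the large subunit that belongs to the PCNA loader alone, was the lowest of the step, with 27.6, 32.4 and 29.1 TPM against 29.1, 25.8 and 30.95 TPM. These values overlapped throughout (log2 fold change -0.05 ± 0.09, adjusted p = 0.634 in limma). Rfc4 shares 12.7% of its exonic bases with Eif4a2 on the other strand, and Eif4a2 moved the opposite way, from 393 ± 10.1 to 222 ± 3.34 TPM.

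RPA, the trimer that coats single-stranded DNA, had 2 subunits that rose and 1 that did not pass. Rpa1, its large DNA-binding subunit, had 77.4, 74.5 and 82.7 TPM against 109, 112 and 115 TPM, and rose by 0.51 ± 0.05 on the log2 scale (limma, adjusted p = 0.000228). Its log2 fold change was 0.48 without pLV-Control replicate 2 and 0.49 without pLV-SEMA6A replicate 3. Rpa2 rose by 0.36 ± 0.06 (limma, adjusted p = 0.00266). Rpa3, the smallest subunit, had 85.7, 90.4 and 87.4 TPM against 84.9, 91.7 and 87.1 TPM. Its levels overlapped fully, with a log2 fold change of 0.00 ± 0.04 (limma, adjusted p = 0.986), and 13.3% of its 31-base stretches occur elsewhere.

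Both genes of Okazaki fragment maturation rose. Fen1, the nuclease that trims the flaps, had 31.9, 34.2 and 31.3 TPM against 42.9, 41.6 and 44.8 TPM (log2 fold change 0.40 ± 0.05, adjusted p = 0.000954 in limma). Lig1, the ligase that seals the nicks, had 46.9, 45.5 and 45.2 TPM against 53.6, 48.6 and 52.0 TPM (log2 fold change 0.16 ± 0.05, adjusted p = 0.0262 in limma). Neither overlapped between the groups, but Lig1 had an adjusted p of 0.0723 to 0.0765 in limma without pLV-Control replicate 2 or 3 or pLV-SEMA6A replicate 1 or 3. Fen1 has 84.2% of its exonic bases overlapped on the other strand, in part by Tmem258, which stood at 178 ± 6.35 and 166.9 ± 2.48 TPM.

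The subunits of chromatin assembly factor 1, which places histones on new DNA, had fold changes of opposite sign. Chaf1a, the large subunit, had 22.3, 24.1 and 24.8 TPM against 33.6, 30.5 and 29.3 TPM, and rose by 0.38 ± 0.07 on the log2 scale (limma, adjusted p = 0.00408). Chaf1b, the middle subunit, had 17.9, 18.0 and 18.4 TPM against 16.7, 17.8 and 14.5 TPM. All its pLV-SEMA6A values were below the pLV-Control values, but the log2 fold change of -0.15 ± 0.08 did not pass (limma, adjusted p = 0.166). Of the exonic bases of Chaf1a, 52.5% are overlapped on the other strand by Ubxn6, which had 26.8 ± 2.10 and 27.0 ± 2.02 TPM.

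A ratio between partner genes within a library depends little on how the libraries are scaled, and 8 such ratios of TPM + 1 were compared on the log2 scale. The libraries did not overlap in 5 of them. For single genes, libraries did not overlap in 23.8% (higher) and 34.7% (lower) of all genes tested. No such share was computed for other pairs of genes. With 3 libraries against 3, the exact permutation test (two-sided) cannot go below 0.1, which is 0.16 after Benjamini-Hochberg adjustment over the 8 ratios, so none could pass. Chaf1a over Chaf1b was higher by 0.53, from 0.37 ± 0.06 to 0.90 ± 0.13 (SD, n = 3), and Pclaf over Pcna was higher by 0.49, from -1.84 ± 0.12 to -1.35 ± 0.10. Gmnn over Cdt1 was lower, at -0.74, -0.56 and -0.82 in pLV-Control against -1.02, -1.43 and -1.10 in the pLV-SEMA6A libraries, a difference of -0.48. Orc1 over Orc2 and Pola1 over Pola2 were each higher by 0.24. Each of these 5 had an exact p of 0.1. Prim1 over Prim2 differed by -0.07 (exact p = 0.4), Dbf4 over Cdc7 by -0.03 (exact p = 0.7) and Pole over Pold1 by -0.05 (exact p = 1), with overlapping libraries.

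**Figure D5:**
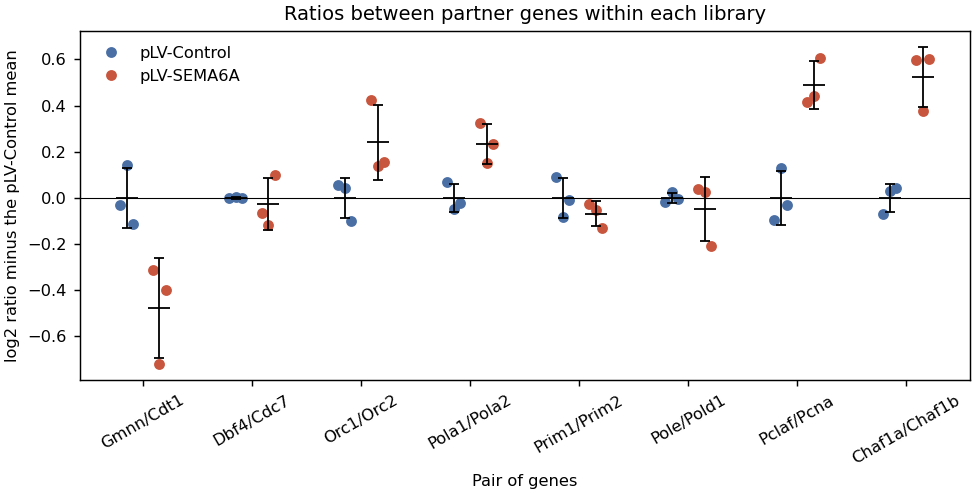
Log2 ratio of TPM + 1 between 8 pairs of partner genes in each library, minus the pLV-Control mean of the pair, with the mean and SD of 3 libraries. Gmnn/Cdt1 lies lower in every pLV-SEMA6A library, Orc1/Orc2, Pola1/Pola2, Pclaf/Pcna and Chaf1a/Chaf1b lie higher, and Dbf4/Cdc7, Prim1/Prim2 and Pole/Pold1 overlap.

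By level, these were mostly well-expressed genes. The mean over the 6 libraries ran from 6.06 TPM for Orc1 to 187.9 TPM for Pcna, with a median of 40.6 TPM beside 18.5 TPM for all genes tested, and 40 of the 46 lay above the latter.

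Other genes of the pathway, taken from a list of 39 replication factors outside the 46, were read by the same test. Of them, 11 (28.2%) were higher and 2 lower at an adjusted p under 0.05, beside 19.5% and 28.2% of all genes, with a median log2 fold change of 0.07. Dscc1, a part of the alternative clamp loader that acts in sister chromatid cohesion, was the highest, with 6.71, 5.63 and 6.54 TPM against 12.8, 12.3 and 10.1 TPM (log2 fold change 0.80 ± 0.11, adjusted p = 0.00132 in limma). Chtf18, the large subunit of that same loader, rose by 0.70, and Tipin, a fork-stabilizing factor, by 0.56 (limma, adjusted p = 0.000819 and 0.00208). Without pLV-Control replicate 3, Tipin was at 0.485, under the minimum of 0.5. Both are given since they were the only other genes of the list called. Pold4, the smallest subunit of polymerase delta, was the lowest, with 47.8, 46.5 and 40.4 TPM against 32.5, 33.1 and 32.6 TPM (log2 fold change -0.44 ± 0.07, adjusted p = 0.00206 in limma).

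Of 8 genes of nucleotide supply, 4 were higher and 1 lower at an adjusted p under 0.05, beside 19.5% and 28.2% of all genes. Tyms, which makes thymidylate, had the highest log2 fold change, 0.81 ± 0.06 (limma, adjusted p = 0.000107), with 41.9, 44.4 and 46.3 TPM against 80.9, 72.7 and 81.8 TPM. Tk1, which salvages thymidine, fell with a log2 fold change of -0.36 ± 0.05 (limma, adjusted p = 0.00145), from 61.8 ± 1.52 to 48.1 ± 2.78 TPM. Of 19 mitosis genes, 10 (52.6%) were higher and 1 lower at an adjusted p under 0.05, beside the same shares of all genes. Their median log2 fold change was 0.16. The 10 became 6 without pLV-SEMA6A replicate 1 or 3, and 14 with median-centred libraries, where 26.9% of all genes were higher. Their extremes were Ube2c, a ubiquitin-conjugating enzyme of the anaphase-promoting complex, at 0.49 ± 0.03, and Bub1, a spindle checkpoint kinase, at -0.25 ± 0.08 (limma, adjusted p = 5.63e-05 and 0.0411). Bub1 was the 1 gene counted as lower, and it passed in 3 of 13 alternatives, among the libraries only without pLV-SEMA6A replicate 1. Of 13 genes for E2F factors, their partners and the pocket proteins that hold them back, 4 were higher and 2 lower at this threshold. The shares of all genes were 19.5% and 28.2%. E2f2 was the highest, rising from 1.93 ± 0.202 to 3.79 ± 0.140 TPM (log2 fold change 0.71 ± 0.11, adjusted p = 0.00222 in limma). Rbl2, which encodes the pocket protein p130, was the lowest, falling from 11.03 ± 1.17 to 6.23 ± 0.406 TPM (log2 fold change -0.73 ± 0.09, adjusted p = 0.00104 in limma). Rbl1, another pocket protein gene, rose by 0.42, and E2f1 did not pass at 0.06 (limma, adjusted p = 0.00164 and 0.515). The median log2 fold change of the 13 was 0.06. E2f2 averaged 2.86 TPM and was not tested with a minimum average of 5 TPM. The part of these genes in the results above was not tested.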

How the data were processed

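Poly-A mRNA of SL4 cells was sequenced on an Illumina platform, and 3 pLV-Control libraries were compared with 3 pLV-SEMA6A libraries. The authors deposited TPM values per gene and library, without read counts. The submitters' processing notes name mm39, HISAT, Bowtie2 and RSEM. The deposited TPM summed to between 977400 and 986444 per library. Since the depth is unknown, detection limits were not derived. The group of each library came from its label, and group means in the table were not used.

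Genes that averaged 1 TPM or more were fitted on the log2(TPM + 1) scale, with group as the only term, using limma 3.58.1 (R 4.3.3). This scale understates the change of low genes. In simulated data of 12510 genes, 200 were changed. Of those changed by 0.6 on the log2 scale 62.0% were called, and of those changed by 1, 78.0%, with 5 false calls. In the data themselves, 19.5% of genes were higher and 28.2% lower at an adjusted p under 0.05, so these rates may not carry over. Same-numbered libraries did not deviate together (correlations -0.08 to -0.02), so no block was used. Ratios were tested by an exact permutation test (scipy 1.17.1). The alternatives tried were a pseudocount of 0.1, other filters, other minimum fold changes, other centrings, no trend, the replicate block and leaving out each library.

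The 46 genes and the other lists were chosen with earlier results of these data known. Library values are given for genes called at both thresholds, for the highest and lowest log2 fold change of each step, and for Pcna and Mcm2 to Mcm7. Of the other lists, the highest and lowest are named. Values of further genes, such as Orc1, Cdt1, Chtf18, Tipin, E2f1 and Rbl1, were added after they were seen. Promoters came from RefSeq (GRCm38.p6), and shared 31-base stretches and exon overlaps were counted on GENCODE M21, matched by identifier. The value of 1 marker gene is not reported here.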

Additional observations from a re-analysis of the deposited data

How the results depend on the processing

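Of the 32 replication genes past an adjusted p of 0.05, 26 stayed past it under all 13 alternative fits, and 6 of the 10 called higher were called under each (Orc6, Mcm2, Mcm3, Mcm5, Mcm6 and Pclaf). The same stability was not counted over all genes tested, so these counts have no share to stand beside. The number called higher was 0 with a minimum log2 fold change of 1 and 12 with a pseudocount of 0.1. It was 14 with median-centred and 13 with trimmed-mean-centred libraries. When a library was left out it was 7 to 12, the lowest without pLV-Control replicate 2. Of all genes tested, 640 were called higher in the main fit, 81 with that minimum and 700 with that pseudocount. The count over all genes was 1002 with median-centred and 855 with trimmed-mean-centred libraries, and 616 to 631 when a library was left out. The number higher at an adjusted p under 0.05 was 27 to 35, beside 2095 to 3370 of all genes tested. The number lower (2, Gmnn and Gins3) was 0 with no filter on low values and with either centring. It was 1 with a minimum average of 5 TPM and without the trend. When a library was left out it was 0 to 2, with 2 (Gmnn and Orc4) only without pLV-SEMA6A replicate 1. With the replicate block, although same-numbered libraries did not deviate together, 10 were called higher, 28 were higher and 0 lower at an adjusted p under 0.05. The cause of these changes was not tested.

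Of the other replication factors, 19 (median-centred) in place of 11 were higher, beside 26.9% in place of 19.5% of all genes. The number lower was 1 in place of 2 with either centring and with the replicate block. It was 1 to 3 when a library was left out. The ratio Dbf4/Cdc7 ranged from -0.0894 to 0.0185 and Pole/Pold1 from -0.0916 to 0.0323 when a library was left out, each turning sign without 1 pLV-SEMA6A library. The log2 fold change of 5 genes near 0 also turned sign when a library was left out, with ranges of -0.0145 to 0.0258 for Cdc7, -0.0743 to 0.0075 for Dbf4, -0.0614 to 0.103 for Pold3, -0.111 to 0.0161 for Rfc1 and -0.0298 to 0.0257 for Rpa3. With median-centred and trimmed-mean-centred libraries, it was 0.0687 and 0.0378 for Dbf4 and 0.0396 and 0.0087 for Rfc1. Unknown depth leaves the precision of low genes such as Orc1 and Gins3 unstated.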
